A study of Rattus norvegicus with 12 samples.

Results

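The 10 genes described here encode surface markers of oligodendrocyte precursor cells (OPCs) and proteoglycans and partner proteins of the matrix around neurons and glia. They are Pdgfra, Cspg4, Ptprz1, Cspg5, Lhfpl3, C1ql1, Vcan, Bcan, Ncan and Tnr, and each was looked up by its symbol in a bulk RNA-seq table of 30562 genes from cultured rat OPCs. A row was found for 9 of the 10, none of them repeated, and all 9 were abundant enough to be tested among 8938 genes. No row carried the symbol Lhfpl3, which was not analysed here.

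OPCs are the dividing glial cells that give rise to myelinating oligodendrocytes, and they are recognized by the growth factor receptor PDGFRα (Pdgfra) and the membrane proteoglycan NG2 (Cspg4). The lecticans versican (Vcan), brevican (Bcan) and neurocan (Ncan) are secreted chondroitin sulfate proteoglycans that bind hyaluronan at one end and tenascin-R (Tnr) at the other. Together with link proteins they form the loose matrix of the young brain and the condensed nets around mature neurons, and OPCs are one of their sources.

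The study asked how mild hypoxic preconditioning alters OPCs in culture. The cells were primary OPCs shaken off mixed glial cultures from the cerebral cortex of newborn wild-type Sprague-Dawley rats, and both groups grew in serum-free medium with B27, FGF-2 and PDGF-AA, the ligand of PDGFRα. The mild-hypo-OPCs were kept at an FiO2 of 5% (6 libraries), and the standard OPCs were kept in room air without preconditioning (6 libraries). The labels give 6 hours of exposure whereas the methods give days, and nothing in the labels says that the libraries came from separate cultures. A legend gives n = 3 biological replicates a group where 6 libraries a group were deposited, and which libraries share a replicate is not given. The SDs, SEs and tests here take each library as a replicate, so p-values measure the spread between these libraries, which may be technical. In bulk RNA, fewer cells of a type and less RNA per cell cannot be told apart.

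The groups differed in sequencing depth and in RNA composition. The mild-hypo-OPC libraries held 4111669 to 9022324 counts, with a median of 4915674.5. The standard OPC libraries were all shallower, at 1356079 to 2797513 counts, with a median of 1952621. Replicate 1 of the mild-hypo-OPCs, at 9022324, stood apart from the next library of its group, at 5474102. Ribosomal RNA genes took 17.4 to 25.3% of all reads counted under mild hypoxia, against 23.9 to 38.4% for the standard group. Depth and condition therefore cannot be told apart. RNA of oligodendrocyte lineage factors was present in both groups. Olig2 had a mean of 306 ± 8.65 CPM in mild-hypo-OPCs and 289 ± 18.6 in standard OPCs (SD, n = 6 each), and Sox10 had 554 ± 42.0 and 472 ± 73.1. These factors do not set the stage of the cells. The myelin gene Mbp stood at 7132 ± 454 and 5851 ± 950 CPM, and the paper describes some cultured cells as starting to differentiate. CPM is the count of a gene per 1000000 counts of its library, after the total had been scaled with a trimmed mean of M-values (TMM) factor.

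Of the 9 genes, 1 was higher in mild-hypo-OPCs, the lectican Bcan, and 0 were lower (edgeR quasi-likelihood test, Benjamini-Hochberg adjusted p under 0.05 over all genes tested). Among all genes tested 7.0% were called higher and 17.0% lower, 24.0% in either direction. limma-voom also called Bcan alone, DESeq2 called Bcan and Ncan, and neither called a member lower. At an unadjusted p under 0.05, Bcan, Ncan and Tnr passed, 3 of 9 members, where 36.3% of all genes did. In 0 of the 9 genes did the libraries of the groups separate completely, where 8.35% of all genes did. The median log2 fold change of the members was 0.03 and their median absolute log2 fold change 0.16, beside -0.003 and 0.195 over all genes tested. The median SE of the log2 fold change was 0.098 among members and 0.131 among all genes.

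**Figure D1:**
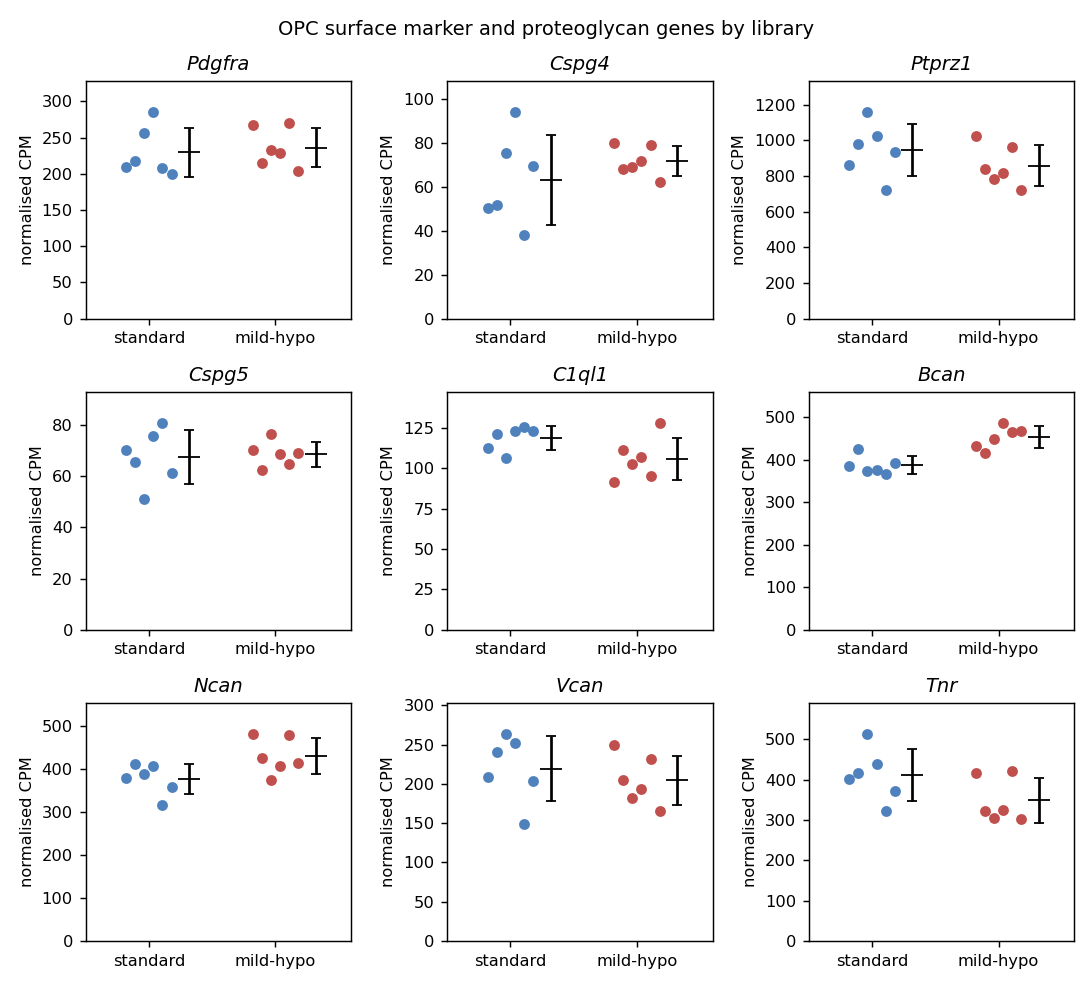
TMM-scaled CPM of each of the 9 genes (1 panel a gene, linear axis) in the 6 standard OPC and the 6 mild-hypo-OPC libraries, with the mean and SD beside the points. In each panel the points of the groups overlap, least so for Bcan, where 5 of 6 mild-hypo-OPC libraries lie above the highest standard OPC library.

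Bcan encodes brevican, a brain-specific lectican made by OPCs and astrocytes and abundant in perineuronal nets. Its level (ENSRNOG00000018798) was 415 CPM in the lowest, 457 in the median and 486 in the highest mild-hypo-OPC library, and 365, 381 and 425 CPM in standard OPCs. All 6 mild-hypo-OPC libraries exceeded the standard median, and 5 of 6 exceeded the highest standard library. The exception was replicate 2 of the mild-hypo-OPCs, at 415 CPM, below replicate 2 of the standard OPCs, at 425 CPM. The means were 452 ± 25.8 and 386 ± 21.2 CPM (SD, n = 6), a 1.17-fold difference with a log2 fold change of 0.23 (SE 0.07, 95% interval 0.08 to 0.38, adjusted p = 0.0257). The call held in each of the 12 fits that left out 1 library, with log2 fold changes from 0.21 to 0.28, but 5 other settings ended it. These were the replicate block (adjusted p = 0.0561), replicates 1 to 3 alone (0.15, adjusted p = 0.465, against 0.33, adjusted p = 0.0237, in replicates 4 to 6), thinning to equal total counts (0.27, adjusted p = 0.0954), and depth or ribosomal RNA share as a covariate (0.26, adjusted p = 0.72, and 0.18, adjusted p = 0.357). Among markers of astrocytes, another source of brevican, Aqp4 and Slc1a3 were also higher in mild-hypo-OPCs, and the other 5 tested were not called, at log2 fold changes from -0.27 to 0.12. Aqp4 and Slc1a3, too, lost their calls with depth or ribosomal RNA share as a covariate. The part of astrocytes in the Bcan difference was not tested.

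Ncan encodes neurocan, the lectican of the developing brain, which neurons make as well. Its level (ENSRNOG00000048036) ran over 374, 421 and 482 CPM (lowest, median, highest) in mild-hypo-OPCs and 317, 384 and 411 CPM in standard OPCs. The groups overlapped, with 4 of 6 mild-hypo-OPC libraries above the highest standard library. The log2 fold change was 0.19 (SE 0.09, 95% interval 0.01 to 0.37), with an unadjusted p of 0.0371 and an adjusted p of 0.111, so Ncan was not called. Without replicate 3 of the mild-hypo-OPCs, the lowest of its group, the log2 fold change was 0.26 and the adjusted p 0.0469. The neuron markers listed further on summed to 255 CPM or more in each mild-hypo-OPC library and to 237 CPM or less in each standard one. Tubb3 was the 1 neuron marker called and had the largest difference in mean CPM (98.9 against 59.4 CPM). Dcx had 106 against 102 CPM, and Elavl4 went the other way without a call (8.68 against 11.6 CPM). The part of neurons in the Ncan values was not tested.

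The promoters of these 2 lecticans are shown because Bcan and Ncan had the highest ratios of log2 fold change to error among the members, and because hypoxia-inducible factors bind a short core motif. The 250 bases before the annotated start are given 5′ to 3′ on the gene's strand from RefSeq on the GRCr8 assembly, Ncan at chr16:19335657-19335906 (plus strand) and Bcan at chr2:175765315-175765564 (minus strand), and capitals mark ACGTG or GCGTG on either strand.
Ncan: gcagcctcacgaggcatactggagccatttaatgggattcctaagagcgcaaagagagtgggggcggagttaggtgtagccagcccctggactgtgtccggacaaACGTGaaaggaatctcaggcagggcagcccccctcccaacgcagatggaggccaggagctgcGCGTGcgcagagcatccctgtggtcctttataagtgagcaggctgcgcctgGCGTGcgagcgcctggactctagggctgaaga
Bcan: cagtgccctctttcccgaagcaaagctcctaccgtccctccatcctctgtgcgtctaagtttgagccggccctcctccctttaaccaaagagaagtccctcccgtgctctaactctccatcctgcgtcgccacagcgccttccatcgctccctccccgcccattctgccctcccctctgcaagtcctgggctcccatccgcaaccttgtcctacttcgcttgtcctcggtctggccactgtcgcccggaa
The Ncan window held 3 matches, whose first bases lay 145, 83 and 32 bases before the start, and the Bcan window held none. ACGTG is also part of the E-box CACGTG. One or the other motif occurred in 36.7% of 33469 windows of this length from 27457 genes, ACGTG in 16.6% and GCGTG in 25.9%, so a match is common. Among the 7 of the 10 genes with a window, Lhfpl3 held 1 match and Cspg4, Pdgfra, Tnr and both windows of Vcan held none of these letters. A match is a description of the sequence and not a site.

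Vcan encodes versican, the large hyaluronan-binding lectican that OPCs deposit around themselves and at nodes of Ranvier. Its level (ENSRNOG00000029212) was 165, 199 and 250 CPM in mild-hypo-OPCs and 149, 224 and 263 CPM in standard OPCs. The ranges lay almost on top of each other, and the log2 fold change of -0.10 (SE 0.12, 95% interval -0.36 to 0.16, adjusted p = 0.593) was within the spread between libraries. It ran from -0.19 without replicate 5 of the standard OPCs to -0.02 without replicate 6 of the mild-hypo-OPCs.

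Tnr encodes tenascin-R, the glycoprotein that cross-links lecticans into nets. It had 304, 323 and 421 CPM in mild-hypo-OPCs and 321, 410 and 513 CPM in standard OPCs (ENSRNOG00000002468). The groups overlapped widely, although 2 of 6 mild-hypo-OPC libraries lay below the lowest standard library. The log2 fold change of -0.24 (SE 0.11, 95% interval -0.47 to -0.00) had an unadjusted p of 0.0489 and an adjusted p of 0.136. Its estimate was as large as that of Bcan with the opposite sign, but its libraries were spread more widely, with SDs of 55.3 and 64.4 CPM around means of 349 and 411 CPM.

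**Figure D2:**
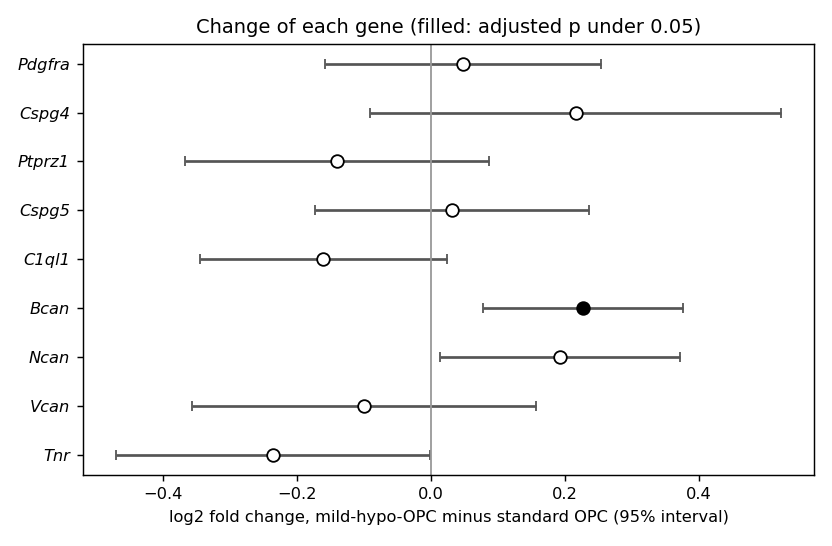
Log2 fold change of each gene (mild-hypo-OPC minus standard OPC, horizontal axis) with its 95% interval from the edgeR fit. The filled point, Bcan at 0.23, is the single gene past an adjusted p of 0.05, and the intervals of Ncan and Tnr end next to 0.

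Because a ratio of genes within a library does not depend on scaling, 2 ratios were compared across libraries. The log2 ratio of Vcan counts to the sum of Bcan and Ncan counts was -2.12 ± 0.19 in mild-hypo-OPCs (range -2.41 to -1.87) and -1.82 ± 0.23 in standard OPCs (range -2.20 to -1.54; SD, n = 6 each). All 6 mild-hypo-OPC libraries lay below the standard mean, but the ranges overlapped. The difference of -0.30 had p = 0.0368 in a two-sided exact permutation test and p = 0.0736 after adjustment over both ratios, and so did not pass. Leaving out single libraries gave exact p-values from 0.013 to 0.0736.

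As shares of the counts of all 4 lecticans, aggrecan (Acan) included, Vcan took 15.6, 18.6 and 21.2% (lowest, median, highest) in mild-hypo-OPCs and 17.5, 21.5 and 25.2% in standard OPCs. Bcan took 36.6, 41.7 and 44.2% against 35.4, 39.0 and 43.0%, and Ncan 36.8, 39.6 and 40.8% against 37.1, 37.4 and 38.5%. All these shares overlapped between the groups, and counts are not corrected for transcript length, so they do not rank the lecticans by molecules. The ratio of Bcan to Tnr counts, a pair chosen after the values were seen and therefore not tested, was 1.04, 1.38 and 1.54 in mild-hypo-OPCs and 0.73, 0.989 and 1.14 in standard OPCs, again with overlap.

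**Figure D3:**
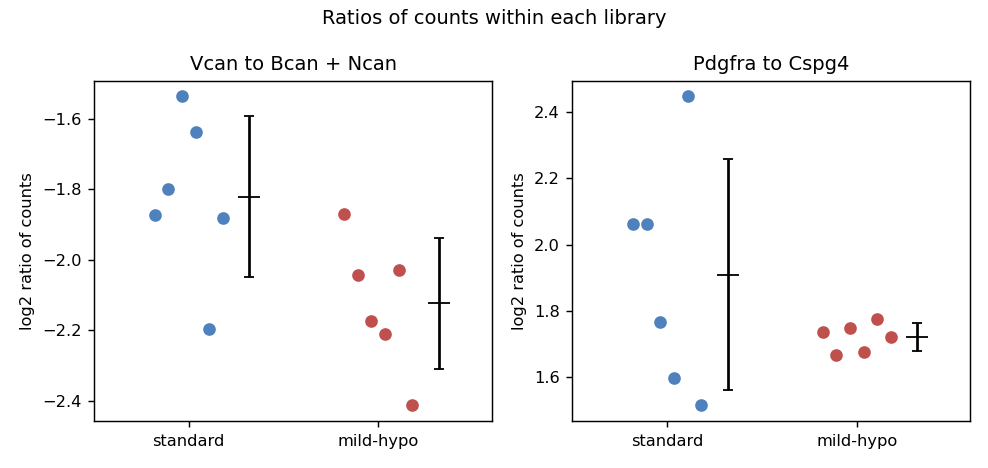
Log2 ratio of counts within each library, Vcan to the sum of Bcan and Ncan (left) and Pdgfra to Cspg4 (right), with the mean and SD of each group beside its 6 points. On the left the mild-hypo-OPC points lie lower with overlap (means -2.12 and -1.82), and on the right they sit closely together between 1.67 and 1.78 while the standard OPC points run from 1.52 to 2.45.

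The receptors that mark OPCs did not pass the test. Pdgfra, the receptor through which PDGF-AA drives OPC proliferation, had 205, 231 and 270 CPM in mild-hypo-OPCs and 199, 214 and 285 CPM in standard OPCs (ENSRNOG00000002244). The standard range enclosed the mild-hypo range on both sides, and the log2 fold change was 0.05 (SE 0.10, 95% interval -0.16 to 0.25, adjusted p = 0.765). Cspg4, whose product NG2 binds PDGF-AA and matrix proteins, had 62.0, 70.3 and 80.0 CPM and 38.0, 60.6 and 93.9 CPM (ENSRNOG00000017208). All 6 mild-hypo-OPC libraries were above the standard median, yet the standard libraries reached both lower and higher. Its log2 fold change of 0.22 (SE 0.15, 95% interval -0.09 to 0.52, adjusted p = 0.306) was close to that of Bcan but with a larger error, at 57 to 135 counts per standard library. It was 0.11 without replicate 5 and 0.34 without replicate 4 of the standard OPCs, and called in neither case.

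The log2 ratio of Pdgfra to Cspg4 counts was 1.72 ± 0.04 in mild-hypo-OPCs and 1.91 ± 0.35 in standard OPCs (SD, n = 6 each). The difference of -0.19 did not pass (two-sided exact permutation test, p = 0.208, adjusted over both ratios 0.208). Without 1 library it ran from -0.27 to -0.08, the smallest without replicate 5 of the standard OPCs. The wider spread in standard OPCs came with fewer counts per library, 261 to 549 for Pdgfra against 1109 to 2558, and was not tested.

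Ptprz1 encodes a receptor-type tyrosine phosphatase that exists as a chondroitin sulfate proteoglycan on OPCs, binds tenascin-R and contactin-1, and is inactivated by pleiotrophin. Its level was 721, 826 and 1024 CPM in mild-hypo-OPCs and 720, 955 and 1158 CPM in standard OPCs (ENSRNOG00000006030). The lowest values of the groups coincided, and the log2 fold change was -0.14 (SE 0.11, 95% interval -0.37 to 0.09, adjusted p = 0.374). It ran from -0.21 without replicate 5 of the standard OPCs to -0.07 without replicate 6 of the mild-hypo-OPCs.

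Among the remaining members, Cspg5, a transmembrane proteoglycan with an EGF-like domain also known as neuroglycan C, had the smallest difference of the 9. It had 62.4, 68.8 and 76.4 CPM in mild-hypo-OPCs and 51.2, 67.9 and 80.6 CPM in standard OPCs (ENSRNOG00000020833), with a log2 fold change of 0.03 (SE 0.10, 95% interval -0.17 to 0.24, adjusted p = 0.851). C1ql1, a secreted C1q-like ligand of the adhesion receptor encoded by Adgrb3, had 91.5, 105 and 128 CPM and 106, 122 and 125 CPM (ENSRNOG00000002963). In 3 of 6 mild-hypo-OPC libraries C1ql1 lay below the lowest standard library, while replicate 6 of the mild-hypo-OPCs was the highest of all 12. The log2 fold change was -0.16 (SE 0.09, 95% interval -0.34 to 0.02, adjusted p = 0.198), and -0.09 without replicate 1 of the mild-hypo-OPCs, the deepest library.

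Within the groups, the genes did not vary independently of each other. Deviations of log2 CPM from the group mean correlated at a Pearson r of 0.97 between Ptprz1 and Vcan, 0.94 between Ptprz1 and Tnr, 0.92 between Vcan and Tnr, and 0.72 between Pdgfra and Cspg4 over the 12 libraries. All pairs among Ptprz1, Vcan, Tnr, Ncan, Pdgfra and Cspg4 lay between 0.57 and 0.97. C1ql1 went the opposite way, at -0.74 to -0.33 with these genes, as did Cspg5, at -0.61 to -0.07. Bcan stood by itself, at -0.18 to 0.16 with every other member.

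The same deviations followed the share of ribosomal RNA counts in the library, at r = 0.81 for Cspg4, 0.71 for Ptprz1, 0.66 for Vcan and 0.64 for Pdgfra, but -0.22 for Bcan and -0.25 for C1ql1. With log2 total counts, C1ql1 had an r of -0.61 and Tnr of 0.43. These points share library, depth and composition, and the correlations are descriptions over 12 libraries. With the ribosomal RNA share as a covariate, Cspg4 was called higher in place of Bcan (log2 fold change 0.81, adjusted p = 0.0332), an alternative chosen after seeing the data.

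The genes whose deviations were most like those of Pdgfra over the 12 libraries were Ckap5 (r = 0.927), Ash1l (0.919), Cdk5rap2 (0.907), Sorbs2 (0.906) and Tut7 (0.905). For Cspg4 they were Usp24 (0.953), Gtf2ird1 (0.948), Fut9 (0.942), Pbrm1 (0.933) and Epg5 (0.931). No other member was among them.

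**Figure D4:**
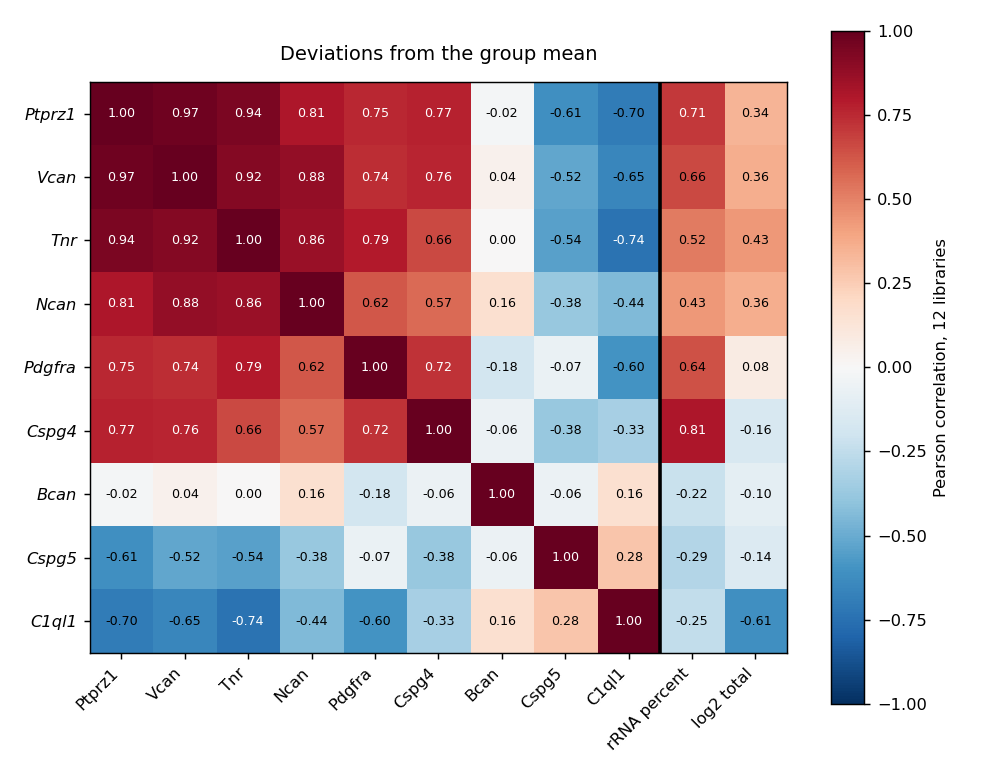
Pearson correlation, over 12 libraries, of deviations from the group mean of log2 CPM between the 9 genes, and with the ribosomal RNA percent and log2 total count of the library in the last 2 columns (color scale -1 to 1). Ptprz1, Vcan, Tnr, Ncan, Pdgfra and Cspg4 form a block from 0.57 to 0.97, while Bcan is near 0 throughout.

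Ligands, receptors and binding partners of these proteins were then examined as a list of 24 genes, of which 14 were abundant enough to test. Of these, 1 was higher and 1 lower, with a median log2 fold change of 0.19. For this and each list below, the shares over all genes tested were 7.0% called higher and 17.0% called lower. Ptn encodes pleiotrophin, the ligand that binds the chondroitin sulfate chains of Ptprz1. It had 258, 270 and 278 CPM (lowest, median, highest) in mild-hypo-OPCs and 293, 340 and 421 CPM in standard OPCs. Every mild-hypo-OPC library lay below every standard library, and Ptn fell by 0.36 on the log2 scale (SE 0.09, adjusted p = 0.00563), a call kept in each of 12 fits without 1 library. It was lost in replicates 1 to 3 (-0.25, adjusted p = 0.206) and with depth (-0.13, adjusted p = 0.941) or ribosomal RNA share (-0.21, adjusted p = 0.371) as a covariate. With library size only it was 0.09, where the median of all genes was 0.43.

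Ptprf, encoding the receptor phosphatase LAR that binds chondroitin sulfate, was higher (75.1 ± 8.20 against 57.2 ± 12.1 CPM, log2 fold change 0.38, SE 0.12, adjusted p = 0.0235). Its call ended without replicate 3, 4 or 6 of the standard OPCs, with an adjusted p of up to 0.0668. It was also lost in replicates 1 to 3 and after thinning (0.48, adjusted p = 0.0816). With the ribosomal RNA share as a covariate Ptprf was not called (0.31, adjusted p = 0.35), nor with depth, where its sign turned (-0.005, adjusted p = 0.998). The partner with the most counts, the gene of the nodal and axonal adhesion molecule neurofascin, Nfasc, was not called (log2 fold change 0.20, adjusted p = 0.206). Pdgfa, which encodes the chain of PDGF-AA, had 23.6 and 24.2 CPM, and neither it nor the partners of Ptprz1 and C1ql1, Cntn1 and Adgrb3, was called (log2 fold changes -0.07, 0.05 and -0.07). Pdgfrb, the other PDGF receptor, had 0 counts in every standard library and at most 6 in a mild-hypo-OPC library, so no fold change is given.

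Enzymes that build and sulfate chondroitin sulfate chains were mostly without a call: of 27 genes 20 were tested, 0 were higher and 1 was lower, with a median log2 fold change of 0.10. The lower gene was B3gat3, whose product completes the linker tetrasaccharide on the core protein. It had 127, 150 and 185 CPM in mild-hypo-OPCs and 158, 196 and 223 CPM in standard OPCs, with overlap, and fell by 0.36 on the log2 scale (SE 0.10, adjusted p = 0.0135). Without replicate 1 or 5 of the mild-hypo-OPCs that call was lost (adjusted p up to 0.0555), and the sign turned with depth as a covariate (0.17). With library size only it was 0.08, again under the median of all genes of 0.43. Papss1, which makes the sulfate donor and took the most counts of the list, had 254 ± 11.4 and 260 ± 21.8 CPM (adjusted p = 0.755).

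Other components of the hyaluronan matrix were scarce in these cultures. Of 17 genes 8 were tested, 1 was higher and 0 were lower. Tnc, encoding tenascin-C, the paralog of tenascin-R that prevails in immature and injured tissue, had 11.1, 12.5 and 17.2 CPM in mild-hypo-OPCs and 4.58, 7.81 and 12.2 CPM in standard OPCs. It was higher with a log2 fold change of 0.75 (SE 0.20, adjusted p = 0.00987), on 6 to 23 counts per standard library. The call was lost in replicates 1 to 3 (0.62, adjusted p = 0.212) and with depth (0.20, adjusted p = 0.957) or ribosomal RNA share (1.05, adjusted p = 0.0669) as a covariate. The hyaluronan receptor Cd44, with the most counts of the list, had a log2 fold change of 0.35 at an adjusted p of 0.0503 in edgeR, and was called by DESeq2 (0.36, adjusted p = 0.0367) and in 5 of 12 fits without 1 library. Acan, the lectican of mature nets, had 13.9 ± 2.68 and 17.9 ± 3.94 CPM (log2 fold change -0.32, adjusted p = 0.165). Has1 had 0 counts in all 12 libraries and the link protein gene Hapln1 at most 2.

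Proteases that cleave lecticans, and their inhibitors, gave 3 higher and 1 lower gene among 11 tested of 20, with a median log2 fold change of 0.18. Among all genes tested 7.0% were called higher and 17.0% lower. Adamts4, an aggrecanase that cleaves brevican and versican and took the most counts of the list, had 140, 159 and 165 CPM in mild-hypo-OPCs and 99.3, 132 and 152 CPM in standard OPCs (log2 fold change 0.27, adjusted p = 0.0487). Bace1, better known for cleaving the amyloid precursor protein (0.32, adjusted p = 0.022), and the membrane-type metalloprotease gene Mmp15 (0.21, adjusted p = 0.049) were also higher, and the inhibitor gene Timp4 was lower (-0.44, adjusted p = 0.0252). All 4 lost their call in some of the 12 fits without 1 library: Adamts4 and Timp4 each in 6, Mmp15 in 7 and Bace1 in 4, with highest adjusted p-values of 0.113, 0.0826, 0.113 and 0.0549. Those 6 fits were, for Adamts4 and Timp4 alike, the ones without replicate 1, 4 or 5 of the mild-hypo-OPCs or 3, 4 or 5 of the standard OPCs. Mmp15 lost it without replicate 4, 5 or 6 of the mild-hypo-OPCs or 1, 3, 5 or 6 of the standard OPCs, and Bace1 without 3, 4, 5 or 6 of the standard OPCs.

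**Figure D5:**
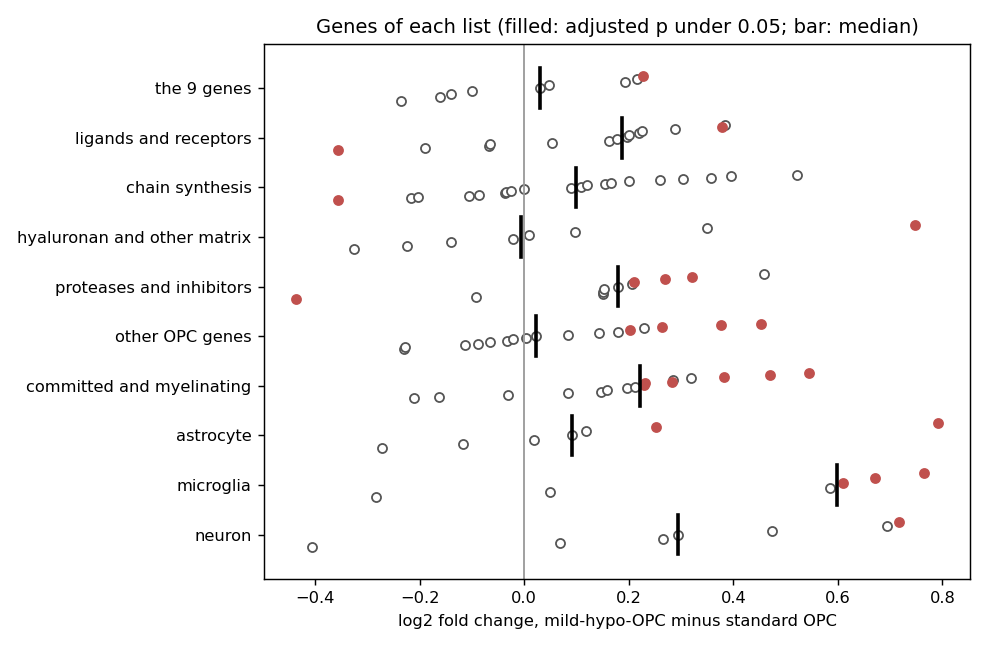
Log2 fold change (mild-hypo-OPC minus standard OPC) of each tested gene, 1 row of points per gene list, with filled points for genes past an adjusted p of 0.05 and a black bar at the median of the list. The ligand, chain synthesis, matrix and protease lists have medians from -0.01 to 0.19 with 1 to 4 called genes each. Of 16 tested genes of committed and myelinating oligodendrocytes 6 were called higher, where 7.0% of all genes tested were.

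Of 20 other genes enriched in OPCs 17 were tested, 4 were higher and 0 lower, where 7.0% of all genes were higher and 17.0% lower, and the median log2 fold change was 0.02. Gpr17, a receptor of precursors committed to differentiation, took the most counts of them and had the largest log2 fold change of the 4, with 1173, 1314 and 1468 CPM in mild-hypo-OPCs and 812, 987 and 1062 CPM in standard OPCs. Its libraries separated completely (log2 fold change 0.45, SE 0.09, adjusted p = 0.000842), but it was not called in replicates 1 to 3 alone (0.39, adjusted p = 0.0608) or with depth as a covariate (0.15, adjusted p = 0.916). Neu4 (0.38), Cacng4 (0.26) and the transcription factor gene Nkx2-2 (0.20) were called at adjusted p-values of 0.0416, 0.0486 and 0.0486 and lost the call in 10, 6 and 8 of the 12 fits without 1 library (adjusted p up to 0.116, 0.0907 and 0.101). For Cacng4 these were the fits without replicate 1 or 5 of the mild-hypo-OPCs or 3 to 6 of the standard OPCs, and for Nkx2-2 those without replicate 2, 5 or 6 of the mild-hypo-OPCs or 2 to 6 of the standard OPCs. The 2 fits in which Neu4 kept it lacked replicate 1 of the mild-hypo-OPCs and replicate 3 of the standard OPCs. Olig2 (log2 fold change 0.08) and Sox10 (0.23) were not called. Of the 17 tested, 10 had a positive log2 fold change and 7 a negative one. The lowest were Megf11 (-0.23, adjusted p = 0.0966) and Dscam (-0.23, adjusted p = 0.303).

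Genes of committed and myelinating oligodendrocytes, the stage at which Pdgfra and Cspg4 are normally turned off, gave 6 higher and 0 lower among 16 tested of 20 (median log2 fold change 0.22). Among all genes tested 7.0% were called higher and 17.0% lower. Of the 16, 13 had a positive log2 fold change and 3 a negative one, Bcas1 (-0.03), Itpr2 (-0.21) and Aspa (-0.16), none of them called. The myelin genes Cldn11 (0.54, adjusted p = 0.00155), Mag (0.47, adjusted p = 0.00295) and Cnp (0.28, adjusted p = 0.0177) separated completely between the groups and were called in each fit without 1 library. In replicates 1 to 3 alone Mag and Cnp were not called (0.33, adjusted p = 0.193, and 0.26, adjusted p = 0.261). Ugt8 (0.23, adjusted p = 0.039) overlapped between the groups, and its call ended in 5 of the 12 such fits, which lacked replicate 4 of the mild-hypo-OPCs or 1 of replicates 3 to 6 of the standard OPCs (adjusted p up to 0.0922). Mbp, with the most counts, had 7132 ± 454 and 5851 ± 950 CPM and was not called by edgeR (0.29, adjusted p = 0.0555), whereas limma-voom (0.30, adjusted p = 0.0252) called it, as did DESeq2 (0.30, adjusted p = 0.0209). With the ribosomal RNA share as a covariate the log2 fold changes were 0.17 for Cldn11, 0.19 for Mag, 0.05 for Cnp and -0.09 for Mbp, and with depth as a covariate 0.42, 0.16 and 0.26 for the first 3, without a call in either case. These marker lists and the 9 members were read from the same libraries, and no test of a difference between lists was made.

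Markers of other cell types were present at unequal levels, and among all genes tested 7.0% were called higher and 17.0% lower. The astrocyte list summed to 838, 880 and 971 CPM in mild-hypo-OPCs and 782, 825 and 866 CPM in standard OPCs. It gave 2 higher genes of 7 tested, Aqp4 (60.8 against 35.4 CPM, log2 fold change 0.79, adjusted p = 0.000287) and Slc1a3 (0.25, adjusted p = 0.0167), while Gfap, with the most counts (380 and 351 CPM), was not called. Gja1, Fgfr3, Slc1a2 and Aldoc were not called either (0.09, 0.02, -0.27 and -0.12). The calls of Aqp4 and Slc1a3 were lost with depth (adjusted p = 0.241 and 0.968) or ribosomal RNA share (0.0919 and 0.246) as a covariate. Slc1a3 also lost its call after thinning (adjusted p = 0.13) and in replicates 1 to 3 or 4 to 6 alone. The microglia list summed to 84.6, 92.5 and 107 CPM and 56.1, 71.1 and 90.8 CPM. In it Csf1r, Cd68 and C1qb were higher of 6 tested (0.61, 0.67 and 0.76, adjusted p = 0.0231, 0.0251 and 0.0355). Trem2 had the 1 negative log2 fold change of the 6 (-0.28), and neither it nor C1qa (0.59) was called. Each standard library held 7 to 39 counts of Csf1r, 7 to 37 of Cd68 and 2 to 18 of C1qb. Those 3 calls ended in 3, 2 and 6 of the 12 fits without 1 library, with adjusted p-values up to 0.0629, 0.0738 and 0.0813. Csf1r depended on replicates 4, 5 and 6 and Cd68 on replicates 3 and 5 of the standard OPCs, and C1qb on replicates 2 and 3 of the mild-hypo-OPCs and 1, 3, 4 and 6 of the standard OPCs.

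The neuron list summed to 255, 260 and 282 CPM in mild-hypo-OPCs and 189, 223 and 237 CPM in standard OPCs, without overlap. It gave 1 higher gene of 7 tested, Tubb3 (0.72, adjusted p = 0.000181). That call was lost with depth (0.63, adjusted p = 0.293) or ribosomal RNA share (0.48, adjusted p = 0.0824) as a covariate. Tubb3 also had the largest difference in mean CPM of the list (98.9 against 59.4), while Dcx, with the most counts, was not called (0.07, 106 against 102 CPM). The other 5 tested were not called, Nefl, Stmn2, Syt1 and Gad1 at 0.69, 0.47, 0.29 and 0.27 and Elavl4 at -0.41, and the median of the list was 0.29. No astrocyte, microglia or neuron marker was at 0 in all libraries. Pericytes and fibroblasts, which also express Cspg4 or Pdgfra, were near 0: none of 12 markers reached the filter, the list summed to at most 2.66 CPM in any library, Col1a1, with the most counts, had at most 9 counts, and Rgs5, Abcc9, Lum and Tbx18 had 0 counts everywhere. Of the 8 endothelial markers 6 had a row and none reached the filter, with at most 7 counts, for Kdr, and with Cdh5 and Tek at 0. The part of astrocytes, microglia and neurons in the values of the members was not tested.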

How the data were processed

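Primary rat OPCs were profiled by strand-specific, paired-end bulk RNA-seq. According to the methods and the submitters' processing notes, reads were trimmed with Trimmomatic 0.36, checked with FastQC 0.11.9, aligned with STAR 2.7.9a to mRatBN7.2 and quantified with RSEM 1.3.3. The table deposited by the authors holds unnormalized counts for Ensembl genes, all whole numbers, and how RSEM's estimates became whole numbers is not given in the sources used here. It has 30562 rows and 12 columns, of which 0 were unused. Groups and replicate numbers came from the labels. No library was taken for a second sequencing of another, since in each of the 15 pairs a group the chi-square per degree of freedom exceeded sampling noise (3.39 to 21.2 in mild-hypo-OPCs, 4.12 to 21.4 in standard OPCs). This check cannot tell whether different libraries were made from the same culture.

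Differential expression was computed from these counts in R 4.3.3 with edgeR 4.0.16: genes above 10 CPM in at least 1 library, TMM factors, glmQLFit and glmQLFTest without covariates, and Benjamini-Hochberg adjustment over 8938 genes at 0.05. SEs were derived from the log2 fold change and its F statistic. Rows without a symbol (4367) stayed in the fit. Ratios used a prior count of 0.5 and two-sided exact permutation tests over 924 arrangements (SciPy 1.17.1), whose smallest p is 0.00216. Correlations used log2 CPM with a prior count of 2. A fold change against a group at 0 was not given, with 3 counts as the floor, and intervals cover counting error and the spread between these libraries only. Levels were not compared between genes per length because no coding lengths were used here, so the gene with the most counts of a list is not ranked by molecules.

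Alternatives were limma-voom (limma 3.58.1, the test of the study), DESeq2 1.42.0, upper-quartile factors, library size only, TMM on protein-coding genes, no filter, filterByExpr, a replicate block, the first or last 3 replicates of each group, each library left out, thinning to 1356079 counts, a prior count of 5 for ratios, and log2 total count as a covariate. The ribosomal RNA covariate was chosen after seeing the data. The members and all gene lists were chosen with earlier results of these data known. From each list, every called gene up to the 5 with the lowest p and the most abundant gene were named. Olig2, Sox10, Pdgfa, Cntn1, Adgrb3, Pdgfrb, Acan, Has1 and Hapln1 were named in addition, after their values were seen. So were Bcas1, Itpr2, Aspa, Gja1, Fgfr3, Slc1a2, Aldoc, Nefl, Stmn2, Syt1, Gad1, Elavl4, Megf11, Dscam, C1qa and Trem2. Myrf was the sixth called gene of its list. A few list genes are counted but not reported here by name. The fit was tested on simulated counts, whose outcome is not given here. Figures were drawn with matplotlib 3.10.9. Promoters came from a RefSeq table (GRCr8) by symbol, and Cspg5, C1ql1 and Ptprz1 matched none.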

Additional observations from a re-analysis of the deposited data

Results flagged for a closer look

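The total count of replicate 1 of the mild-hypo-OPCs, 9022324, lay far from the other 5 libraries of its group, the nearest of which had 5474102 (gap divided by range 0.723, against a critical value of 0.625). It was the 1 value flagged among 38 groups of 6 values checked, where chance flags about 1 in 20. Without that library, Bcan was still called higher and no other member was called.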

How the results depend on the processing

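No pairing by equal replicate numbers was seen (same-number correlations 0.296, -0.0245, -0.0481, 0.0555, -0.276 and 0.207, with 1 of 6 best matching its own number). These correlations cannot exclude that libraries of equal number shared a culture, because differences in library composition enter them too. With the replicate block 0 members were called higher (Bcan 0.23, adjusted p = 0.0561), and the Vcan ratio was -0.303 (exact sign-flip p = 0.125, smallest possible 0.03125). The 1 member called became 2 with upper-quartile factors, 8 with library size only, 2 with DESeq2, and 0 with replicates 1 to 3, thinning or log2 total count as a covariate. It ranged from 1 to 2 over fits without 1 library, and no alternative called a member lower. Bcan had 0.15 (adjusted p = 0.465) in replicates 1 to 3 and 0.27 (0.0954) after thinning.

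Genes called higher, 626, became 1136 with upper-quartile factors, 5515 with library size only, 53 with replicates 1 to 3 (569 with 4 to 6), 161 after thinning, 0 with the total count covariate and 23 with the ribosomal RNA covariate (436 to 823 without 1 library). Genes called lower, 1520, became 405 with library size only, 343 with replicates 1 to 3 (1381 with 4 to 6), 604 after thinning, 43 with the total count covariate and 173 with the ribosomal RNA covariate (1165 to 1664 without 1 library). Over all genes tested the median change was -0.003 (log2), 0.43 with library size only and 0.06 with upper-quartile factors. Of the 22 called list genes that were named, 3 kept the call in replicates 1 to 3, 18 in replicates 4 to 6, 10 after thinning, 0 with the total count covariate and 1 with the ribosomal RNA covariate. The cause was not tested.

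The Vcan ratio had -0.293 in replicates 1 to 3 and -0.313 in 4 to 6 (exact p = 0.2 each, where 0.1 is the smallest possible), -0.308 after thinning (exact p = 0.0671), and -0.378 to -0.245 without 1 library. The Pdgfra to Cspg4 ratio turned to 0.068 after thinning (exact p = 0.794).

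Signs turned as follows, on the log2 scale. Library size only moved all genes up, and relative to their median the members kept their signs (Tnr -0.218 against -0.233, C1ql1 -0.150 against -0.158): Acan 0.106, Adgrb3 0.371, B3gat3 0.084, C1ql1 0.278, Papss1 0.4, Pdgfa 0.366, Ptn 0.087, Ptprz1 0.308, Tnr 0.21 and Vcan 0.346. With upper-quartile factors: Adgrb3 0.001, Papss1 0.033 and Pdgfa 0.002. With the total count covariate: B3gat3 0.166, Bace1 -0.017, C1ql1 0.165, Cacng4 -0.034, Cd44 -0.058, Cntn1 -0.199, Dcx -0.116, Nfasc -0.334, Pdgfra -0.028 and Ptprf -0.005. After thinning: Adgrb3 0.086, Cspg4 -0.018 and Pdgfa 0.016. In replicates 4 to 6: Adgrb3 0.167, Cspg5 -0.098, Papss1 0.062 and Pdgfa 0.119. With the ribosomal RNA covariate: Adgrb3 0.272, Cspg5 -0.062, Mbp -0.089, Ptprz1 0.215, Tnr 0.037 and Vcan 0.292. Without 1 library: Adgrb3 ran from -0.14 to 0.088, Cspg5 from -0.039 to 0.087, Papss1 from -0.065 to 0.01 and Pdgfa from -0.118 to 0.006.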

Other observations

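Change differed with gene length across the table. Among tested genes with a RefSeq span, the median log2 fold change was -0.26 in the shortest 20% of genes (median span 4552 bases), 0.08 in the next to longest (median span 49924 bases) and 0.06 in the longest (median span 130296 bases). The members reach from 7431 bases for C1ql1 and 13434 for Bcan to 197900 for Ptprz1 and 421034 for Tnr. In order of span, from the shortest, their log2 fold changes were -0.16 for C1ql1, 0.23 for Bcan, 0.03 for Cspg5, 0.19 for Ncan, 0.22 for Cspg4, 0.05 for Pdgfra, -0.10 for Vcan, -0.14 for Ptprz1 and -0.24 for Tnr. Among list genes called lower, B3gat3 and Timp4 span 6581 and 6684 bases and Ptn 81851. Cnp and Gpr17, called higher, span 6560 and 6922 bases. The part of gene length in these values was not tested.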
